A study of Homo sapiens with 12 samples.

Results

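Genes of the sarcomere and of mature muscle were followed in RD cells, a line from an embryonal rhabdomyosarcoma. The set held 50 genes chosen by their function: isoforms of fast, slow, embryonic and heart muscle, scaffold proteins, enzymes of muscle metabolism, and proteins of the muscle membrane. Each gene was read by 1 probe set, the one with the highest mean signal among those annotated to that gene alone. By this rule 48 of the 50 had a probe set on the array, of 11963 genes in all. The other 2, TPM3 and TNNT2, had none annotated to them alone and were not analysed here. Signals were bright enough to test for 32 of the 48, and the remaining 16 are described by their signals only.

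The series used 12 arrays in 4 groups of 3. RD cells had been transduced with PAX3-FKHR-ER or with the vector pK1, and each was left without drug or given 30 nM 4-hydroxytamoxifen (4-OHT) for 24 h, per the labels. PAX3-FKHR is the fusion transcription factor of alveolar rhabdomyosarcoma, and the estrogen receptor domain keeps it inactive until 4-OHT binds. All 4 groups were populations of 1 tumour line, and the promoter of the construct was not given in the sources used here; the labels number the replicates 1 to 3 within each group without saying what was shared between arrays of 1 number, so p-values measure only the spread between these samples. The design text speaks of 3 populations for each construct.

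In a sarcomere, myosin thick filaments pull on actin thin filaments. Troponin and tropomyosin on the thin filament make that pull depend on calcium, which the ryanodine receptor releases from the sarcoplasmic reticulum and the SERCA pumps return. Muscle fibres carry fast, slow, embryonic or cardiac versions of many of these proteins, and the genes are switched on late, when myoblasts leave the cell cycle and fuse, under MYOD1, myogenin (MYOG), MEF2 and serum response factor. Rhabdomyosarcoma cells carry the muscle programme but complete it poorly.

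The 4 arrays of replicate 1 stood apart from the other 8. Pearson r of log2 signals over all tested probe sets was 0.957 to 0.982 among them, 0.815 to 0.869 between them and the rest, and 0.867 to 0.982 among the rest. The median signal of 27 probe sets for poly-A control RNA, which is added before labelling, was 2.33 to 6.17 on the replicate 1 arrays and 92.8 to 251 on the others. FOXO1, the 3' part of the fusion, checked the labels without 4-OHT: the PAX3-FKHR-ER arrays of replicates 2 and 3 had signals of 146 and 124, above the 52.1 and 36.1 of pK1. In replicate 1 it was 142 under the PAX3-FKHR-ER label and 214 under pK1, and PAX3 was 17.6 and 49.4, so both went against the labels on those untreated arrays. On the treated arrays of replicate 1 FOXO1 was 138 and 121, and PAX3 58.9 and 57.8, slightly higher under PAX3-FKHR-ER. Counts of the set past the threshold are therefore given over all 12 arrays and over replicates 2 and 3. Signals of single genes are given by replicate, and their tests mostly come from replicates 2 and 3. The cells read as skeletal muscle lineage: MYOD1 lay between 197 and 2098, and CDH15 and MSC were at 106 or more on every array, while MYF5 and PAX7 stayed at or under 16.3. Of markers of other tissues, MYH6 of heart and MYH11 of smooth muscle stayed at or under 11.2, CDH5 of endothelium at or under 4.03 and KRT19 of epithelia at or under 4.77. Others of the same lists had signal: NKX2-5 read 94.8 to 239, ACTG2 30.8 to 284, SMTN 82.7 to 197, HBB 72.8 to 166, PECAM1 8.08 to 84.3 and KRT18 645 to 1868. Of fibroblast markers, COL1A1 read 226 to 635, COL3A1 803 to 6273 and DCN 81.8 to 164. Their part in the muscle results was not tested. The summed signal of 8 lineage markers was 1983 to 3078 and 2253 to 3035 on the PAX3-FKHR-ER arrays without and with 4-OHT, and 611 to 2167 and 527 to 3068 on those of pK1.

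The muscle genes were bright in some populations and dim in others. The median signal of the 32 tested genes was 186 and 164 on the PAX3-FKHR-ER arrays of replicates 2 and 3 without 4-OHT, and 74.0 on that of replicate 1. With 4-OHT the medians were 171 and 110 in replicates 2 and 3 and 62.2 in replicate 1. On untreated pK1 arrays they were 90.8, 60.3 and 208 for replicates 1, 2 and 3, and on treated ones 75.5, 53.3 and 215. Over all tested probe sets the median lay between 7.21 and 7.30 on the log2 scale. So the muscle genes were high in both PAX3-FKHR-ER populations of replicates 2 and 3 and in pK1 replicate 3, and low in pK1 replicate 2 and on all replicate 1 arrays.

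A wide contrast lay inside the vector group. Without 4-OHT, 20 of the 32 genes were at least 1 log2 unit higher in pK1 replicate 3 than in pK1 replicate 2, against 7.08% of all tested probe sets, and 0 were as much lower, against 5.46%. With 4-OHT these counts were 19 (9.15% of all) and 0 (5.47%). MYL11, the fast regulatory light chain of myosin, read 67.6 in replicate 2 and 2244 in replicate 3. CKM, muscle creatine kinase, read 8.69 and 261, and TNNI1, slow troponin I, 3.59 and 414. MYOD1, the myoblast factor, read 222 and 367, both below the 1006 or more of the PAX3-FKHR-ER arrays, and MYOG read 10.3 and 94.9. In pK1 replicate 1 MYOD1 read 1112 without and 2098 with 4-OHT, the latter the highest of the series, so the constructs overlapped. In bulk RNA, fewer differentiated cells and less muscle RNA in each cell cannot be told apart.

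**Figure D1:**
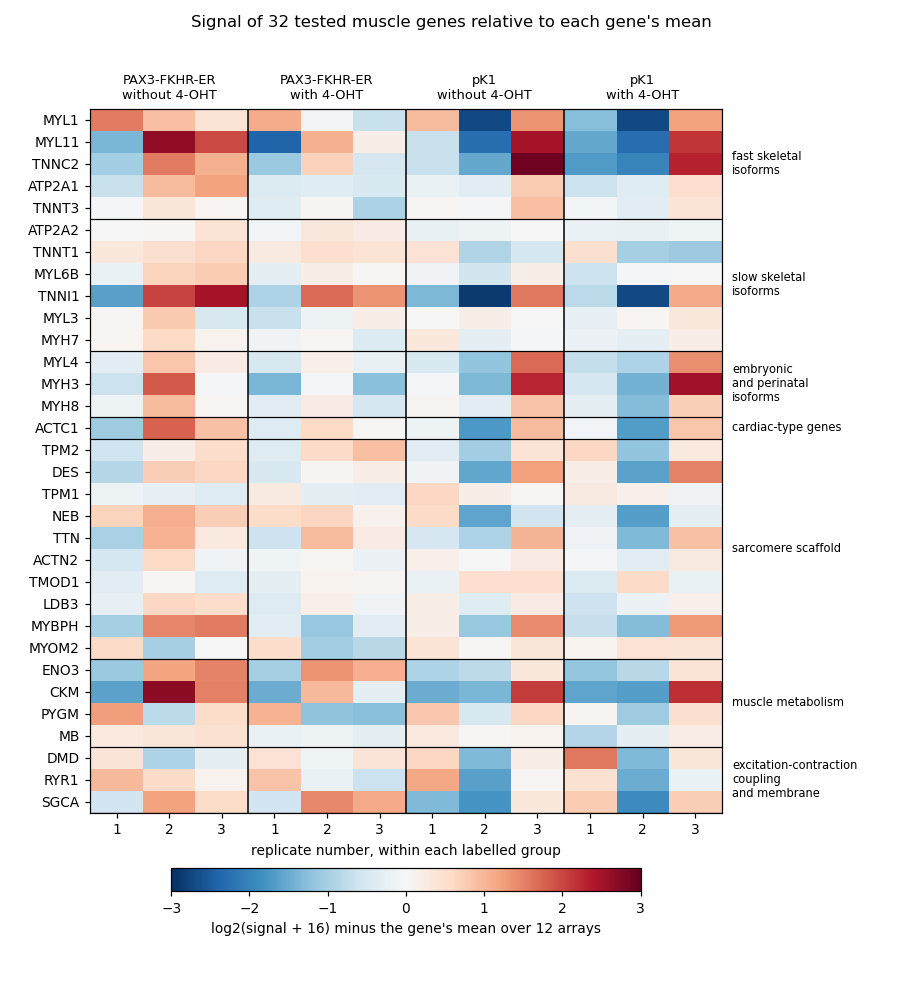
Each row is 1 of the 32 tested muscle genes and each column 1 of the 12 arrays; the colour is log2(signal + 16) minus that gene's mean over the arrays, red above and blue below. Red columns are PAX3-FKHR-ER replicates 2 and 3 without 4-OHT and pK1 replicate 3 with and without it, and the pK1 replicate 2 columns are mostly blue.

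The main question was what activation of the fusion by 4-OHT did to these genes. Over all 12 arrays 0 of 13329 probe sets, and so 0 of the 32 genes, had a Benjamini-Hochberg adjusted p under 0.05 in limma. Unadjusted, 62 probe sets (0.465%) and 1 of the 32 genes were under 0.05, MB. With each pair of arrays of 1 construct and replicate number as a block the adjusted count was again 0. Unadjusted, 894 probe sets (6.71%) and 14 muscle genes had a limma p under 0.05. Of the 14, 13 were lower with 4-OHT (3.33% of all probe sets) and 1 was higher (3.38%). The median change of the 32 genes was -0.41 on the log2 scale over 12 arrays, against -0.01 for all tested probe sets, and -0.18 without the PAX3-FKHR-ER array of replicate 2 without 4-OHT.

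In replicates 2 and 3, fitted as pairs of arrays with and without 4-OHT, 8 of the 32 genes fell and 0 rose. Among all tested probe sets 186 passed (1.4%), with 80 lower (0.6%) and 106 higher (0.795%). The 8 were MYL1, MYL11, TNNC2 and ATP2A1 of the fast isoforms, MYH3 of the embryonic ones, ACTC1 of the heart ones, MYBPH of the scaffold and CKM of metabolism. In this fit none of the 6 tested slow isoforms passed, nor any of the 3 membrane and calcium-release genes. The median change of the 32 was -0.56, with 26 below 0, against -0.02 for all probe sets. The 8 arrays leave few residual degrees of freedom. Without the block they gave 0 probe sets (270, or 2.03%, with an unadjusted p under 0.05, 3 muscle genes among them). Without either PAX3-FKHR-ER pair the count was 0, and without pK1 pair 2 or pair 3 it was 14 or 11 muscle genes, of 531 or 486 probe sets. Beyond the 8, both of these held MYL6B and TNNI1 of the slow isoforms, which were lower, and DMD of the membrane, which was higher; TNNI1 is named after its values were seen.

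MYOG, the factor of terminal differentiation, was lower on the same treated arrays. Under the PAX3-FKHR-ER label its signal was 298 and 172 on the untreated arrays of replicates 2 and 3, 20.8 and 19.7 on the treated ones, and 13.4 and 53.03 in replicate 1. MYOD1 was instead higher with 4-OHT in all 3 PAX3-FKHR-ER pairs, at 1006, 1379.97 and 1111 without and 1216, 1912 and 1809 with it. On the pK1 arrays of replicates 1, 2 and 3 MYOD1 read 1112, 222 and 367 without and 2098, 197 and 322 with 4-OHT. MYOG read 32.8, 10.3 and 94.9 without and 35.6, 8.82 and 101 with 4-OHT there. The part of either in the fall of the 8 genes was not tested.

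**Figure D2:**
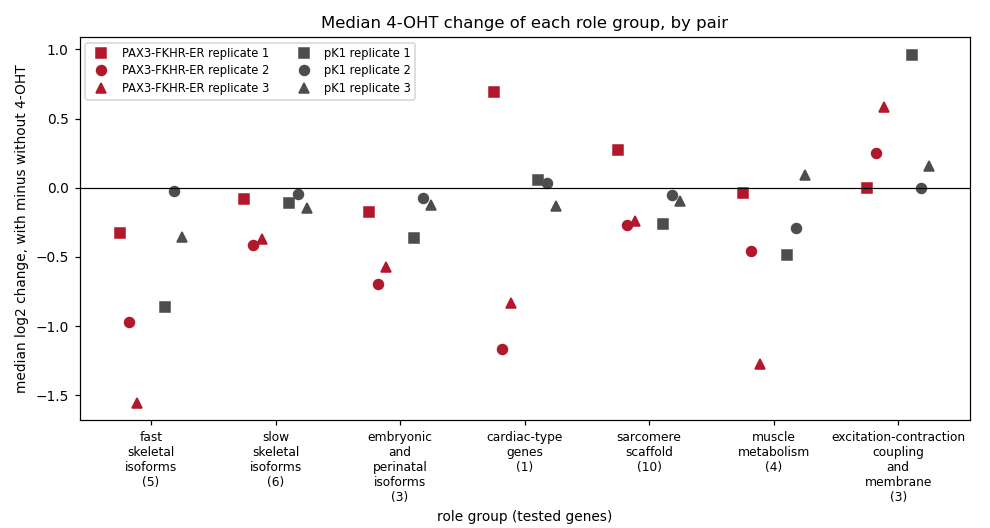
The horizontal axis lists the 7 role groups with the number of tested genes in each; the vertical axis is the median log2 change with 4-OHT, 1 point for each pair of arrays, red for PAX3-FKHR-ER and grey for pK1, with squares, circles and triangles for replicates 1, 2 and 3. In replicates 2 and 3 the PAX3-FKHR-ER medians of the fast group were -0.97 and -1.55, and those of the slow group -0.42 and -0.37.

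Of the 5 tested fast isoforms 4 fell. MYL1, a fast alkali light chain of myosin, read 2744, 1734 and 1233 on the PAX3-FKHR-ER arrays of replicates 1, 2 and 3 without 4-OHT and 2022, 876 and 573 with it. It was lower in each pair, although the groups overlapped, and it fell in replicates 2 and 3 (-1.03 ± 0.12 SE, limma adjusted p = 0.00808, on the log2 scale). On the pK1 arrays it read 1811, 127 and 2365 without and 373, 128 and 2155 with 4-OHT, so that only the replicate 1 vector pair, at -2.23, moved by more than 0.2.

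MYL11 read 139, 2503 and 1558 without and 60.2, 822 and 448 with 4-OHT under the PAX3-FKHR-ER label. The level without drug in replicate 1 was far under the other 2, yet the gene was lower with 4-OHT in all 3 pairs, at -1.02, -1.59 and -1.76. It had the smallest p of the set in the paired fit (-1.68 ± 0.13 SE, limma adjusted p = 0.00177; 2031 ± 669 without and 635 ± 264 with 4-OHT, SD, n = 2). The vector pairs read 237, 67.6 and 2244 without and 123, 66.4 and 1747 with it.

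TNNC2, the calcium-binding subunit of fast troponin, read 69.3, 491 and 343 without and 63.99, 263 and 106 with 4-OHT. It fell in replicates 2 and 3 (-1.21 ± 0.18 SE, limma adjusted p = 0.0165) and was almost level in replicate 1, at -0.09. The vector pairs were lower as well, at -1.04, -0.46 and -0.62, on signals of 93.5, 43.3 and 1289 without drug.

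ATP2A1 encodes SERCA1, the calcium pump of fast fibres. It read 41.4, 159 and 192 without and 51.6, 53.9 and 50.4 with 4-OHT. The 3 treated arrays lay within 50.4 to 53.9, the level of the replicate 1 array without drug was already below them, and the gene fell in replicates 2 and 3 (-1.49 ± 0.19 SE, limma adjusted p = 0.00892). On pK1 arrays it read 63.1, 55.7 and 138 without and 41.5, 54.7 and 113 with 4-OHT.

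TNNT3, fast troponin T, the subunit that ties troponin to tropomyosin, read 46.1, 66.2 and 50.9 without and 33.6, 51.5 and 17.05 with 4-OHT. It was lower in all 3 pairs, at -0.33, -0.28 and -1.02, but did not pass (-0.65 ± 0.26 SE, limma adjusted p = 0.355). The vector pairs were lower too, at -0.12, -0.29 and -0.50.

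**Figure D3:**
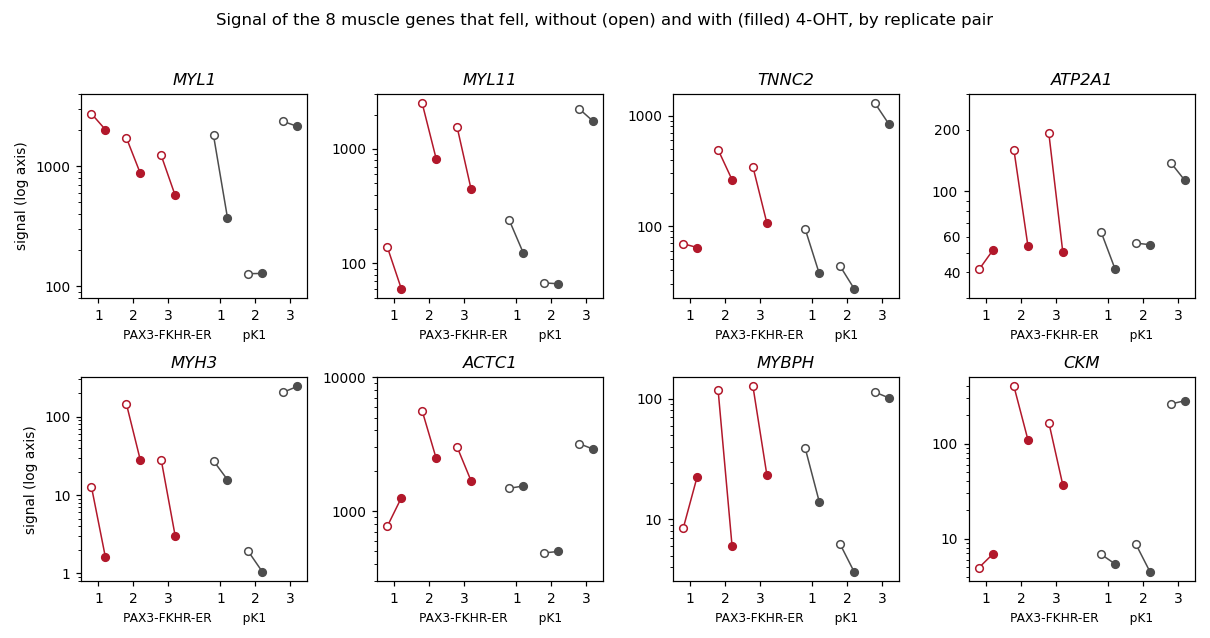
For the 8 genes that passed in the paired fit, the signal (log axis) without 4-OHT (open circle) is joined to that with 4-OHT (filled circle) for each replicate pair, red for PAX3-FKHR-ER and grey for pK1. All 8 red lines slope down in replicates 2 and 3, 4 of the 8 do so in replicate 1, and of the grey lines 7 slope down in replicate 1, 6 in replicate 2 and 6 in replicate 3.

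Promoters of the 8 genes were searched for motifs of muscle transcription factors, because the genes had moved together. RefSeq promoters on GRCh38.p14, from 250 bases before to 50 after the start site, matched 34 of the 50 genes. The E-box CAGCTG, bound by MYOD1 and myogenin, was in 13 of the 34 (38.2%), against 17.7% of 27305 promoters of the same length, read on both strands since the motif is its own reverse complement. Among the 6 fallen genes with an entry, all but TNNC2 and MYH3, it was in 3, and among 16 tested genes that did not pass in 3 (18.8%). The other E-box searched, CAGGTG or its reverse complement CACCTG, was in 8 of the 34 (23.5%, against 20.6%), in 1 of the 6 fallen genes (16.7%) and 4 of the 16 others (25.0%). The CArG box of serum response factor was in 4 (11.8%, against 1.29%; 1 of the 6 and 1 of the 16), the MEF2 site in 5 (14.7%, against 3.09%; 0 of the 6 and 3 of the 16) and TATAAA, on either strand, in 11 (32.4%, against 12%; 2 of the 6 and 3 of the 16). With so few genes the shares were not tested, and a MEF2 site can overlap a TATA-like stretch. These are matches of letters, not measured binding.

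The promoters of 5 fallen genes are printed 5′ to 3′ on the strand of the gene, with capitals for matched E-boxes and CArG boxes. TATAAA matches stay in lower case, 1 of them in ACTC1. MYL1, the other fallen gene with an entry, is not printed. It had no match to either E-box, the CArG box or the MEF2 site, and 2 TATAAA matches when either strand was read. Counted from the start site, CAGCTG begins at -99 in CKM, at -222 and -70 in MYBPH and at -19 in ATP2A1. CAGGTG or its reverse complement begins at -34 in MYL11, and a CArG box at -109 in ACTC1.
CKM (chr19:45322826-45323125, minus strand): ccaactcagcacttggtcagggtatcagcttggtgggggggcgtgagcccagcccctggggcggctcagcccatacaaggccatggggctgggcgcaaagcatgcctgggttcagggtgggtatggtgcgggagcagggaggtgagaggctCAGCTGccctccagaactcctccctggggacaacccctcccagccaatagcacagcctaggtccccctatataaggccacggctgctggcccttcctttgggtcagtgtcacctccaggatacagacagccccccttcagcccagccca
MYBPH (chr1:203175777-203176076, minus strand): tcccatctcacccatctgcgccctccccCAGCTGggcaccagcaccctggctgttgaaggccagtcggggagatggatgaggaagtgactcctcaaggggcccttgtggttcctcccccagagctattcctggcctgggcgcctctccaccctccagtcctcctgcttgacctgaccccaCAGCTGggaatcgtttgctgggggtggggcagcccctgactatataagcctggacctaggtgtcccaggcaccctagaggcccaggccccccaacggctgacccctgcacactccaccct
ATP2A1 (chr16:28878238-28878537, plus strand): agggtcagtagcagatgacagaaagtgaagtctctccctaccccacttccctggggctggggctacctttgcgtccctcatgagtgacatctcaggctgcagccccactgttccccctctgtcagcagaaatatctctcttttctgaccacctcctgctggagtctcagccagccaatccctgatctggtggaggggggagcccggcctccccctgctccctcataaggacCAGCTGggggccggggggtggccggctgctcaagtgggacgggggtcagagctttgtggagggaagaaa
MYL11 (chr16:30370684-30370983, plus strand): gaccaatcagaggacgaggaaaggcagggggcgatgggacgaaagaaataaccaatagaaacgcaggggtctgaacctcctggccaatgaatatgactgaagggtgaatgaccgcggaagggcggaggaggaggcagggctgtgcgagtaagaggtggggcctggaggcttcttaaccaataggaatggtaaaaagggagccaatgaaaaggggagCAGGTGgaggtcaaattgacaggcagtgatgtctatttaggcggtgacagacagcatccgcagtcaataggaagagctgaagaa
ACTC1 (chr15:34795500-34795799, minus strand): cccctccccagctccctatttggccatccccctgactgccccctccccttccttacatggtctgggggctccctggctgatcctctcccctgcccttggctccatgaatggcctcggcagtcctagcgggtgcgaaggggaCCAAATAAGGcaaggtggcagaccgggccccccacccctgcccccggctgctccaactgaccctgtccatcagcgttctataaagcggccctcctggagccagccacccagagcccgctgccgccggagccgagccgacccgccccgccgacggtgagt
In the paired fit CKM, MYBPH and ATP2A1, the 3 with CAGCTG, changed by -1.75, -2.23 and -1.49, MYL11 by -1.68 and ACTC1 by -1.001. The 3 tested genes that carry CAGCTG and did not pass were DMD, at -116, TPM2, at -238 and -190, and ACTN2, at -15.

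By the probe sets used, embryonic and perinatal isoforms were lower with 4-OHT under the PAX3-FKHR-ER label in every pair. In the paired fit 1 of the 3 fell. MYH3, the embryonic heavy chain of myosin, read 12.8, 147 and 28.3 without and 1.61, 28.2 and 3.03 with 4-OHT (-1.55 ± 0.28 SE, limma adjusted p = 0.0329). It was highest in pK1 replicate 3, at 206 and 244, and at or under 2 in pK1 replicate 2. Signals this low are close to the 16 added before taking logs, which shrinks the changes of dim genes.

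MYH8, the perinatal heavy chain, read 39.6, 102 and 48.4 without and 33.2, 57.3 and 27.4 with 4-OHT. MYL4, the light chain of embryonic muscle and the atrium, read 151, 359 and 234 without and 134, 217 and 166 with 4-OHT. By the probe sets used both were lower in each pair, and neither passed. Of the other tested probe sets of MYL4, 1 was at 0.13 in replicate 1 and 1 at 0.04 in replicate 3, and the last was lower in each pair. An untested probe set of MYH8 was at 1.09 in replicate 1. MYH8 was lower in each vector pair as well, at -0.36, -0.98 and -0.12. Their highest signals among the vector arrays were again those of replicate 3, where MYL4 read 667 and 543.

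Of the heart isoforms ACTC1 was bright enough to test. ACTC1, cardiac alpha-actin, is also the main sarcomeric actin of fetal skeletal muscle. It read 769, 5601 and 3015 without and 1254, 2481 and 1685 with 4-OHT and fell in replicates 2 and 3 (-1.001 ± 0.13 SE, limma adjusted p = 0.00892; 4308 ± 1828 and 2083 ± 563, SD, n = 2). In replicate 1 it was higher with 4-OHT, by 0.69. On pK1 arrays it read 1480.5, 487 and 3190.2 without and 1539, 499 and 2903 with 4-OHT, within 0.14 of level in each pair, so that the spread lay between populations. Over 12 arrays the change was -0.44, and without the PAX3-FKHR-ER array of replicate 2 without 4-OHT it was 0.18.

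None of the 6 tested slow isoforms passed in the paired fit. TNNT1, slow troponin T, read 1413, 1581 and 1747 without and 1359, 1607 and 1499 with 4-OHT under the PAX3-FKHR-ER label. ATP2A2, the SERCA pump of slow and heart muscle that other cells also use, read 1429, 1475 and 1927 without and 1360.4, 1833 and 1729 with 4-OHT and had the highest change of this group over 12 arrays; in the paired fit it was 0.08 ± 0.14 SE, limma adjusted p = 0.899. A second probe set of ATP2A2 went the other way, from 466, 964 and 859.9 to 411, 748 and 641.

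TNNI1 had the widest range of the group. It read 30.8, 568 and 800.2 without and 59.2, 447 and 348 with 4-OHT, on pK1 arrays 40.8, 3.59 and 414 without and 66.5, 5.89 and 301 with 4-OHT. It was lower with 4-OHT in replicates 2 and 3 and higher in replicate 1, and did not pass.

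MYL6B, a slow light chain also made outside muscle, had the lowest change of the slow group over 12 arrays. It read 632, 1158 and 1242 without and 590.1, 815 and 746 with 4-OHT, lower in each pair, and did not pass (-0.61 ± 0.16 SE, limma adjusted p = 0.145). MYH7, the slow and ventricular heavy chain, read 53.9, 85.7 and 56.2 without and 47.02, 53.2 and 34.4 with 4-OHT, with every treated array below every untreated one. MYL3, the ventricular and slow light chain, read 63.3, 117 and 39.1 without and 32.4, 53.2 and 72.2 with 4-OHT, lower in replicates 1 and 2 and higher in replicate 3.

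In the scaffold 1 of the 10 tested genes fell, and it lies at the thick filament. MYBPH, myosin-binding protein H, read 8.44, 119 and 126 without and 22.6, 6.04 and 23.2 with 4-OHT. In replicates 2 and 3 it had the largest change of the set (-2.23 ± 0.28 SE, limma adjusted p = 0.00892; 122 ± 5.57 and 14.6 ± 12.2, SD, n = 2), and in replicate 1 it was higher by 0.66. On pK1 arrays it read 38.8, 6.23 and 113 without and 14.03, 3.68 and 102 with 4-OHT. The mean of MYBPH over 12 arrays was 48.6, against the signal filter of 36.7. By group of 3 it was 84.4 and 17.3 under PAX3-FKHR-ER without and with 4-OHT, and 52.8 and 39.8 under pK1. Its place among the tested genes therefore depended on the untreated PAX3-FKHR-ER arrays.

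Thin-filament genes differed in direction. TPM2, beta-tropomyosin, read 233, 413 and 523 without and 272, 543 and 685 with 4-OHT. It was higher by 0.21, 0.38 and 0.38 in the 3 PAX3-FKHR-ER pairs, the 1 gene at 0.2 or more in each, and did not pass (0.38 ± 0.12 SE, limma adjusted p = 0.23). In the vector pairs it was higher in replicate 1, by 0.96, and at -0.13 and -0.11 in the others. TPM1, alpha-tropomyosin, read 275, 255 and 231 without and 372, 246 and 239.6 with 4-OHT. NEB, nebulin, which spans the thin filament, read 315, 426 and 330.1 without and 288, 310.3 and 211 with 4-OHT, with no overlap. TMOD1, tropomodulin, the cap of the pointed end, read 58.04, 78.6 and 55.1 without and 60.4, 83.4 and 82.6 with 4-OHT.

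TTN, the giant spring titin, read 40.6, 213 and 119 without and 55.5, 197 and 114 with 4-OHT, almost level in replicates 2 and 3. DES, desmin, the intermediate filament that links myofibrils, read 157, 499.9 and 466 without and 210.04, 316 and 343 with 4-OHT, and reached 710.5 and 862 in pK1 replicate 3. At the Z-disc, ACTN2, alpha-actinin 2, read 49.05, 125 and 70.7 without and 69.6, 79.5 and 67.1 with 4-OHT, and LDB3, also called ZASP, 40.03, 85.3 and 79.2 without and 34.7, 57.9 and 45.1 with 4-OHT. MYOM2, an M-band protein, read 58.4, 8.85 and 33.6 without and 55.3, 8.13 and 12.2 with 4-OHT. None of these 5 passed.

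Among the metabolic genes 1 of 4 fell. CKM read 4.98, 398 and 166 without and 6.93, 109.6 and 36.7 with 4-OHT (-1.75 ± 0.19 SE, limma adjusted p = 0.00782). It was close to 0 on both arrays of replicate 1, under the 16 added before taking logs, and on the pK1 arrays it read 6.84, 8.69 and 261 without and 5.42, 4.49 and 282 with 4-OHT. The pK1 replicate 3 signals lay between the 2 untreated PAX3-FKHR-ER ones and were slightly higher with 4-OHT.

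MB, the oxygen store myoglobin, read 80.7, 86.5 and 92.8 without and 53.3, 55.6 and 48.5 with 4-OHT, with no overlap between the groups of 3 and changes of -0.48, -0.52 and -0.76 by pair. It was the 1 muscle gene with an unadjusted p under 0.05 over 12 arrays (-0.59 ± 0.26 SE, limma unadjusted p = 0.0452, which did not hold after adjustment), and it did not pass in replicates 2 and 3 (-0.64 ± 0.22 SE, limma adjusted p = 0.276). The vector pairs were at -1.18, -0.31 and 0.11. PYGM, muscle glycogen phosphorylase, read 187, 32.7 and 109.97 without and 161, 20.9 and 19.8 with 4-OHT, with most of the change in replicate 3. ENO3, muscle enolase, read 78.7, 452 and 564 without and 87.1, 510.4 and 422 with 4-OHT, and its direction differed between pairs.

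No gene of the membrane and of calcium release passed in the paired fit. DMD, dystrophin, which anchors the cytoskeleton to the membrane, read 260.4, 95.8 and 162 without and 271, 178 and 263 with 4-OHT (0.72 ± 0.16 SE, limma adjusted p = 0.0712). SGCA, alpha-sarcoglycan of the same complex, read 27.96, 135 and 81.2 without and 27.9, 164 and 129.9 with 4-OHT. RYR1, the ryanodine receptor of skeletal muscle, went the other way, at 179, 132 and 90.03 without and 161, 69.8 and 47.4 with 4-OHT (-0.76 ± 0.22 SE, limma adjusted p = 0.189). DMD was higher with 4-OHT in the pK1 pair of replicate 1 as well, from 313 to 625.

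Across the 3 PAX3-FKHR-ER pairs, 15 of the 32 genes were lower with 4-OHT in each pair, against 14.9% of all tested probe sets. By the probe sets used, 3 were higher in each, against 13.2%. The 3 were TPM2, DMD and, named after its values were seen, TMOD1. In the vector pairs 8 of 32 were lower in each pair (16.6% of all) and 0 were higher in each (12.6%). Taken singly, 19, 25 and 26 of the 32 genes were below 0 in replicates 1, 2 and 3 under the PAX3-FKHR-ER label, where 48.8%, 53.5% and 51.8% of all probe sets were. The medians of the 32 were -0.07, -0.51 and -0.62. Losses of at least 1 log2 unit were found for 1, 6 and 10 of the 32 genes, against 0.368%, 1.59% and 1.25% of all probe sets, and gains of that size for 0 in each, against 0.548%, 1.91% and 1.2%. Both replicates 2 and 3 were below 0 for 23 genes (31.0% of all probe sets), and in the vector for 12 (26.5%). With no overlap between arrays, 3 genes were lower over 12 arrays (1.70% of all probe sets) and 0 higher (1.70%). The 3, named after their values were seen, were MYH7, NEB and MB. In replicates 2 and 3 alone 18 were lower (15.6%) and 3 higher (13.3%).

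**Figure D4:**
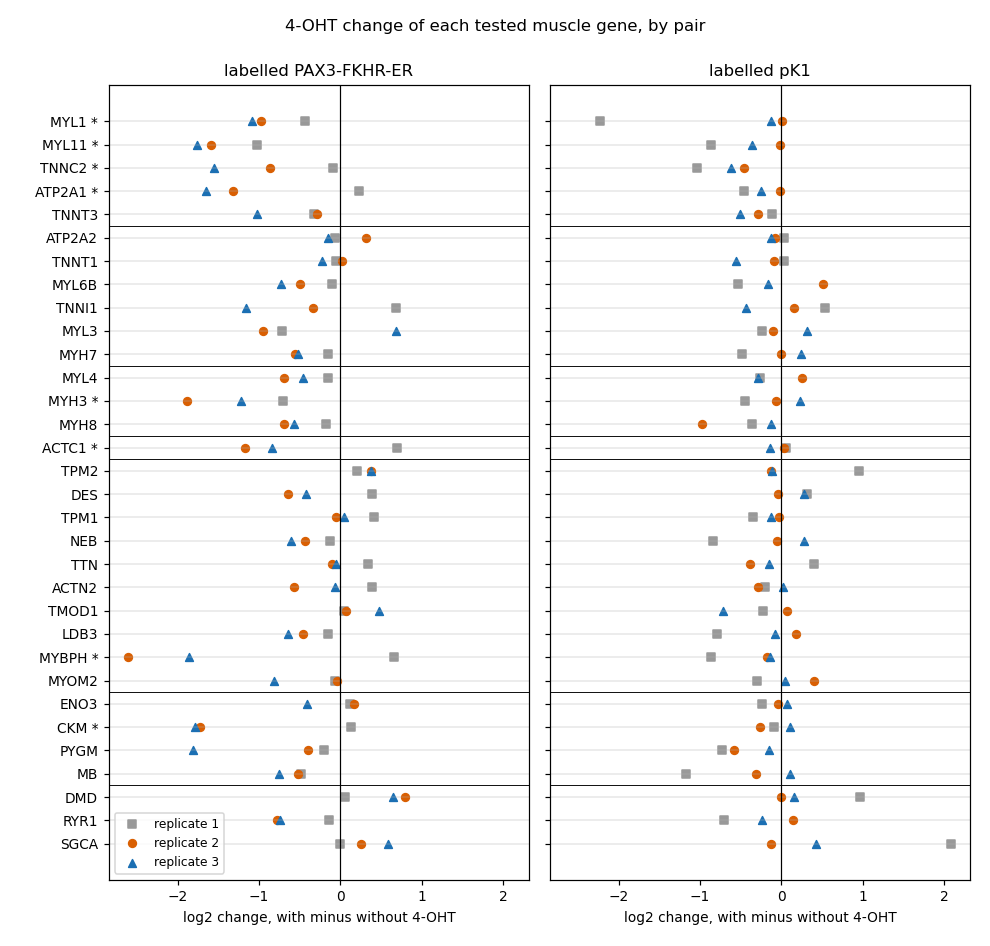
Each point is the log2 change of 1 gene with 4-OHT in 1 pair of arrays, left for PAX3-FKHR-ER and right for pK1, with squares for replicate 1, circles for 2 and triangles for 3; horizontal lines part the role groups, and an asterisk marks the 8 genes that passed in the paired fit. On the left, circles and triangles lie below 0 for 23 of the 32 genes; on the right they lie below 0 together for 12.

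In vector cells 4-OHT changed no muscle gene past the threshold. Over 12 arrays limma gave 0 probe sets (72, or 0.54%, unadjusted, with 0 muscle genes), and with the block 0 (916, or 6.87%, with 5 muscle genes). The paired fit to replicates 2 and 3 gave 0 as well (760, or 5.7%, with 2 muscle genes). The median change of the 32 genes was -0.13 over 12 arrays and -0.08 in the paired fit, against -0.03 and -0.01 for all probe sets. The 12-array median rested on single pK1 arrays. It was -0.49 without replicate 2 untreated, 0.10 without replicate 3 untreated, 0.07 without replicate 2 treated and -0.52 without replicate 3 treated.

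By pair, the vector medians were -0.28, -0.05 and -0.13. Replicate 1 stood out in the fast group, whose median was -0.86 there and -0.02 and -0.36 in the others; MYL1 carried the largest drop, from 1811 to 373. SGCA went from 10.2 to 95.03 in the same pair. Of the 8 genes that fell under the PAX3-FKHR-ER label, 7 were lower in the vector pair of replicate 1, with changes from -2.23 to 0.06, against 4 in the PAX3-FKHR-ER pair of that replicate. In the other vector pairs 6 of the 8 were lower in each, and changes ran from -0.46 to 0.03 in replicate 2 and from -0.62 to 0.23 in replicate 3.

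The change in PAX3-FKHR-ER cells was then set against that in vector cells. Over 12 arrays 0 of 13329 probe sets differed in limma (39, or 0.293%, unadjusted, with 0 muscle genes), and 7 (0.0525%) did in the paired fit to replicates 2 and 3. Of those 7, MYL11 was the 1 muscle gene, with a difference of -1.49 ± 0.18 SE, limma adjusted p = 0.0496. In single replicates its difference was -0.16, -1.57 and -1.40. The call was lost without the block, with a pseudocount of 1, without the signal filter, without the intensity trend and with the median over probe sets. MYL11 has only 1 probe set, so that median left its own signals unchanged. Without either PAX3-FKHR-ER pair 0 muscle genes were called different, and without pK1 pair 2 or pair 3 it was 4 or 5, of 78 or 408 probe sets.

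The other 7 fallen genes missed the threshold for the difference. CKM came next (-1.67 ± 0.27 SE, limma adjusted p = 0.081), then MYL1 (-0.96 ± 0.16 SE, limma adjusted p = 0.099), MYBPH (-2.08 ± 0.39 SE, limma adjusted p = 0.134) and ACTC1 (-0.95 ± 0.18 SE, limma adjusted p = 0.138). For TNNC2, which was lower in the vector pairs too, it was -0.67 ± 0.25 SE, limma adjusted p = 0.429. The median difference of the 32 genes was -0.60 in the paired fit and -0.26 over 12 arrays, where it became 0.18 without untreated pK1 replicate 2 and 0.145 without treated pK1 replicate 3, and -0.06 to -0.57 without any other array. By replicate it was 0.26, -0.42 and -0.56: positive in replicate 1 and negative in both others.

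Between constructs no muscle gene passed in either treatment. Without 4-OHT, limma gave 0 probe sets over 12 arrays (277, or 2.08%, unadjusted, with 2 muscle genes) and 1 in the paired fit (0.0075%), no muscle gene. With 4-OHT it gave 0 over 12 arrays (267, or 2.0%, with 2 muscle genes) and 21 in the paired fit (0.158%), again no muscle gene. These comparisons share arrays with those of 4-OHT.

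The median of the 32 genes, PAX3-FKHR-ER minus pK1, was -0.21, 1.34 and -0.22 in replicates 1, 2 and 3 without 4-OHT and 0.09, 1.24 and -0.58 with it. Replicate 2 was far above 0 in both, and it is the replicate with low muscle signals in the vector. Over 12 arrays the median without 4-OHT was 0.29. It became -0.02 without pK1 replicate 2 and 0.75 without pK1 replicate 3. With 4-OHT it was 0.10, and -0.21 and 0.46 without pK1 replicates 2 and 3 in turn.

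In replicates 2 and 3 alone, 13 of the 32 genes were higher under PAX3-FKHR-ER with no overlap without 4-OHT (18.8% of all probe sets) and 3 lower (16.5%), and with 4-OHT 8 were higher (20.2%) and 4 lower (18.1%). TNNT1, NEB and ENO3 are examples of those higher in both treatments. TNNT1 read 1581 and 1747 against 592 and 779 without 4-OHT and 1607 and 1499 against 553 and 524 with it, and in replicate 1 1413 against 1540.3 and 1359 against 1574. NEB on the pK1 arrays read 294, 53.8 and 125 without and 157, 50.9 and 155 with 4-OHT, below the PAX3-FKHR-ER arrays without overlap in both treatments. ENO3 on the pK1 arrays read 93.2, 103 and 244 without and 76.2, 99.8 and 257 with 4-OHT, below in replicates 2 and 3. Without 4-OHT and over 12 arrays 1 gene was higher with no overlap (2.9% of all probe sets) and 1 lower (3.08%), NEB and TPM1; with 4-OHT 2 were higher (3.18%), NEB and ATP2A2, and 0 lower (2.12%). These were named after their values were seen, and none passed.

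Other muscle genes were followed for comparison. Of 68 further sarcomere and triad genes, 46 had a probe set and 26 were tested. In the paired 4-OHT comparison under PAX3-FKHR-ER 0 passed in either direction, and 19 were below 0, with a median of -0.11. The vector gave much the same, with 17 below 0 and a median of -0.13. The median difference between the constructs was 0.005, with 13 of the 26 below 0. MYOZ2, a Z-disc protein, read 1.22, 162 and 129.5 without and 2.04, 111 and 75.9 with 4-OHT, and SMPX, a small costamere protein, 3.49, 216 and 203 without and 2.83, 153 and 141 with 4-OHT; both were chosen after their values were seen. CHRNA1, a subunit of the acetylcholine receptor, read 1256, 2559.99 and 1750.3 without and 1238, 2044 and 1950.1 with 4-OHT. Among 26 contractile genes of smooth muscle and non-muscle cells, 18 of the 24 on the array were tested and 0 passed, with a median of 0.05.

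Cytoskeletal beta-actin, ACTB, read 8832, 10676 and 8371 without and 8022, 9597 and 8649.8 with 4-OHT. Markers of fibroblasts differed between replicate numbers. COL3A1, a fibrillar collagen, read 1029, 4616 and 4477 without and 1036, 6273 and 5129.6 with it, 895, 2462 and 5197 without and 803, 2505 and 5198 with 4-OHT on the pK1 arrays. The summed signal of the 6 fibroblast markers ranged from 1461 to 5887 without and from 1532 to 7262 with 4-OHT under the PAX3-FKHR-ER label, and from 1399 to 5798 and 1206 to 5704 under pK1. LUM stayed at or under 18.1, and the part of such markers in the muscle results was not tested.

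Probe sets of 1 gene did not always move alike. The 48 genes had 69 probe sets, of which 45 were tested, and 8 of the 45 were called lower and 0 higher in the paired fit. Each of the 8 fallen genes had only 1 probe set, so none of the calls could be checked against another. Of 7 genes with more than 1 tested probe set, 5 had a single sign in that fit. For ACTN2 the probe set used was at 0.40, -0.57 and -0.06 by pair, while another read 4.26, 123 and 33.2 without and 5.41, 6.32 and 9.51 with 4-OHT, highest in replicate 2 without drug, and 173 and 175 in pK1 replicate 3. Another of TPM1 behaved in a like way, at 23.5, 202 and 83.4 without and 34.2, 90.3 and 69.98 with 4-OHT, against 275, 255 and 231 without and 372, 246 and 239.6 with 4-OHT for the one used. For DMD the other tested probe sets were at 0.06, 0.32 and -0.22 and at -0.04, 0.86 and 0.64 by PAX3-FKHR-ER pair, so neither rose in every pair. An untested one of TMOD1 was at -0.54, -0.01 and -1.07. The other one of TPM2 was higher in each, at 0.06, 0.17 and 0.31. By the array maker's naming, 3 of the 32 genes (MYH7, MYL4 and TPM1) were read by x_at probe sets, which can share probes with other genes.

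Of the 16 genes under the signal filter, 12 stayed under 60 on all 12 arrays, and 10 had their highest signal in pK1 replicate 3. Some of these maxima were dim, such as PGAM2 at 11.2 and MYH2 at 25.9. CACNA1S was nearly tied, at 29.5 in untreated pK1 replicate 2 and 29.9 in untreated pK1 replicate 3. The count of 10 alone therefore says little. ACTA1, skeletal alpha-actin, read 107 and 105 in pK1 replicate 3 and at most 18.3 on the other 10 arrays. TNNC1, slow and cardiac troponin C, read 145 and 69.2 there, 50.1 and 33.4 in PAX3-FKHR-ER replicates 2 and 3 without 4-OHT, and 2.46 and 3.24 with it. CASQ2, cardiac calsequestrin, reached 82.6 and 105, and CSRP3, muscle LIM protein, 58.5 and 52.1, on the same arrays. TNNI2, fast troponin I, was instead highest in pK1 replicate 1, at 86.9 and 145. The adult fast heavy chains MYH1 and MYH2 stayed at or under 12.4 and 25.9.

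Among the 3 genes of the set with the brightest probe sets, likeness over the 12 arrays was described by Pearson r of log2 signals, on arrays that share populations. ACTC1 was most like TTN (0.93), TNNI1 (0.93) and DES (0.92). MYL1 was most like RYR1 (0.81), NEB (0.75) and MYH8 (0.69). ATP2A2 was most like ENO3 (0.84), TNNI1 (0.75) and MYL6B (0.66).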

How the data were processed

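RNA from 12 samples of RD cells was measured on 1 Affymetrix human expression array each. The deposited values are signal intensity on a linear scale; the submitters' processing notes name GCOS and MAS5 without a version. They were not scaled again. Of 22283 probe sets, 68 controls were left out, and 19065 of the other 22215 had a single symbol in the array annotation, 1043 several and 2107 none; a RefSeq gene table changed 0 symbols. Probe sets in the lowest 40% of mean signal, under 36.7, were dropped, which left 13329 (8124 genes). Array medians lay between 50.4 and 62.8, and the number of arrays limits the precision.

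Values were log2(signal + 16), and changes are on that scale. Group means were fitted in R 4.3.3 with limma 3.58.1 (lmFit, eBayes with an intensity trend), two-sided, with Benjamini-Hochberg adjustment over all tested probe sets and a threshold of 0.05. The main fit used 12 arrays with no block. The paired fit used replicates 2 and 3 with the pair of arrays of 1 construct as a block for 4-OHT and the number as a block for the constructs. Replicate numbers were taken to pair the samples. Deviations from the group means correlated in every pair, at 0.703 to 0.851 for 4-OHT in PAX3-FKHR-ER and 0.789 to 0.817 in pK1. Between constructs the values were 0.152 to 0.685. Replicate 1 stood apart in every group, which can make such deviations correlate by itself, and arrays of unlike number were not compared. These values therefore cannot show that the numbers 2 and 3 were matched. The scripts were run on simulated data with planted changes of 3 log2 units, above the largest change of the set in the paired fit. Recovery of smaller changes was not tested. Python 3.11.15 and matplotlib 3.10.9 made the figures.

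The genes, role groups, other lists, motifs and tests were chosen with earlier results of these data known. Every member may be named by its signals. Changes are named for members past the threshold in any fit, for those moving at least 0.2 the same way in all 3 PAX3-FKHR-ER pairs, and for the largest rise and fall of each role group over 12 arrays. Promoters came from RefSeq, GRCh38.p14.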

Additional observations from a re-analysis of the deposited data

Results flagged for a closer look

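The change of MYL11 with 4-OHT under the PAX3-FKHR-ER label, minus that under pK1, was -1.49 on the log2 scale when replicates 2 and 3 were fitted as pairs. This was the 1 muscle gene whose response was called different between the constructs there. Over all 12 arrays the difference was not called.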

How the results depend on the processing

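Across the alternatives, 360 values of the comparisons lay within the replicate spread or 1.5 times the count, and 56 did not. Direction was not part of this rule, and some medians near 0 changed sign within the spread. For single genes 398 values kept side and direction, 42 lost the call, 12 gained it and 8 turned. Over 12 arrays, 0 probe sets passed in any comparison with or without the replicate block. Replicates 2 and 3 with the replicate block gave 186 probe sets and 8 muscle genes for 4-OHT in PAX3-FKHR-ER, 7 and 1 for the difference, 1 probe set for the constructs without 4-OHT and 21 with it; without the block these were 0, 0, 1 and 13. The cause of the other shifts was not tested.

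Changes to the paired fit were chosen after seeing the data. For 4-OHT in PAX3-FKHR-ER it gave 37 probe sets and 3 muscle genes without the signal filter, 17 and 3 without the intensity trend, and a median of -0.68 with log2(signal + 1). For the difference it gave 0 probe sets and 0 muscle genes without the block, filter or trend, 18 probe sets with quantile normalization, and 0 muscle genes with log2(signal + 1) or the median over probe sets. For the constructs without 4-OHT it gave 0 with no filter or with quantile normalization. With 4-OHT it gave 4 with log2(signal + 1), 4 without the filter and 2 without the trend, and 1 muscle gene with the median over probe sets. MYH3 lost its call with log2(signal + 1). ACTC1, ATP2A1, MYH3 and TNNC2 lost theirs without the filter or the trend, MYBPH without the filter and MYL1 without the trend. ATP2A2 read -0.32 over 12 arrays and -0.39 in the paired fit with the median over probe sets.

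Leaving out arrays, the vector median ranged from -0.52 to 0.10 and that of the difference from -0.57 to 0.18, ACTC1 from -1.23 to 0.18 and ATP2A2 from -0.057 to 0.16. Leaving out pairs in the paired fit, 4-OHT in PAX3-FKHR-ER ranged from 0 to 531 probe sets and 0 to 14 muscle genes, 4-OHT in pK1 from 0 to 285, and the difference from 0 to 408 probe sets, 0 to 5 muscle genes and medians of -0.65 to -0.43; ATP2A2 ranged from -0.16 to 0.31. A fit that keeps 1 pair of a construct takes its spread from the other. MAS5 signals near background are noisy, and no detection call was used here.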
